A study of Homo sapiens with 9 samples.

Results

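The step from 4 to 6 µM of ARN22089 was described across all genes of WM3248, a human melanoma cell line, by setting the 3 libraries titled 6 µM against the 3 titled 4 µM. These are 6 of the 9 libraries of the series. The other 3 libraries received 0 µM, which was the vehicle DMSO alone, and entered the same fit so that all doses shared 1 estimate of the spread. Every culture was the same line, with no genetic change named in the labels, and RNA was taken 24 h after the compound was added and enriched for poly-A transcripts. The values therefore describe 1 cell line at 1 time. The labels do not state whether replicates were grown as separate cultures. The p-values below thus speak only to the spread among these 9 libraries, and that spread may be technical.

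CDC42, RHOJ and RHOQ are small GTPases that switch between a GDP-bound and a GTP-bound state. In the GTP-bound state they bind effectors such as the PAK kinases, which act on actin filaments, cell shape and signalling to the nucleus, and ARN22089 was developed to block that contact. In melanoma cells these signals are tied to movement and growth, and genes that follow actin tension or cell division are common readouts of them. A comparison between 2 active doses asks which transcripts still change once a response has begun.

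Levels are the FPKM of a gene, the fragments mapped to it scaled by transcript length and by library depth, summed over its assembled transcripts. Differences are 6 minus 4 µM on the log2(FPKM + 1) scale with their SE, which understates the change of low genes. An adjusted p is that of limma after Benjamini-Hochberg correction over all 12246 genes tested, and a gene is said to have risen or fallen only where it lay below 0.05. Coordinates are those of GRCh38. Each library had been assembled on its own, so an exact 0 can be a failed assembly. For that reason a consensus exon value is given beside the summed one. For it, FPKM was averaged per base over exon positions that recur in at least 50% of the libraries holding the gene, whatever name the transcripts there carry.

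The libraries differed in depth along the step. Depth relative to the median library was 0.802 to 1.00 at 4 µM and 1.00 to 1.34 at 6 µM, and assembled transcripts numbered 26506 to 28108 at 4 µM and 29573 to 30798 at 6 µM. The numbers of transcripts did not overlap between the doses, while the ranges of depth met. A library at 4 µM listed 442 to 554 tested genes at 0, and a library at 6 µM 405 to 479. The part of depth in the results was not tested. Pearson correlations across the tested genes were 0.913 to 0.921 within 4 µM, 0.907 to 0.913 within 6 µM and 0.897 to 0.920 between the doses. The label was checked against markers of cell types. All 8 melanoma markers passed the filter on low values, with sums of 1246 to 2359 FPKM at 4 µM and 1385 to 2054 at 6 µM. Keratinocyte markers (2 of 6 passed) summed to 31.4 to 37.4 and 28.9 to 38.8 FPKM, most of it from KRT10, while KRT1, KRT5, TP63 and DSG3 were at 0 in all 6 libraries. Fibroblast markers (4 of 6) summed to 29.9 to 54.6 and 33.0 to 56.9 FPKM, mostly from LUM and COL1A2, with DCN below 3 FPKM. No endothelial marker passed, and of the leukocyte markers LYZ alone did, with PTPRC, CD3E, CD14 and ITGAM at 0.

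Few single genes passed the test across the step. TMEM198B, a transcribed pseudogene, and SPTAN1, which encodes the alpha chain of non-erythroid spectrin, a scaffold under the plasma membrane, were higher at 6 µM, and DHRS13, a member of the short-chain dehydrogenase family, was lower. Of the 12246 genes, 2 rose (0.0163%) and 1 fell (0.00817%) in limma's test. With TPM in place of FPKM, 1 gene was higher and 2 were lower. With the replicate number as a block the count was 0 higher and 1 lower, where 254 genes were higher (2.07%) and 445 lower (3.63%) at an unadjusted p below 0.05. With that block on the 4 and 6 µM libraries alone, the count was 0 in both directions. The median log2 difference of all tested genes was -0.03. Without the block, an unadjusted p below 0.05 was found for 206 genes in the higher direction (1.68%) and 364 in the lower direction (2.97%), and 570 in either (4.65%). The 3 libraries of a dose did not overlap those of the other in 450 genes that were higher at 6 µM (3.67%) and 902 that were lower (7.37%). Leaving out 1 library at a time gave 2 to 14 passing genes. The count was 9 without replicate 1 at 0 µM, 6 and 7 without replicates 2 and 3 at 4 µM, and 9, 14 and 10 without replicates 1, 2 and 3 at 6 µM.

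TMEM198B (chr12:55829608-55836246) was listed at 0 in all libraries at 4 µM and was at 5.29, 5.32 and 4.21 FPKM in replicates 1, 2 and 3 at 6 µM. It was also present at 0 µM, at 3.97, 4.94 and 3.19 FPKM, so the libraries at 4 µM were the low ones of the 3 doses. The log2 difference was 2.56 ± 0.22 (adjusted p = 0.0102 in limma). By consensus exons it was 1.71 (adjusted p = 0.018). The call held in all 9 fits that left out 1 library, and the adjusted p was 0.0921 with the replicate block. At 4 µM all transcripts over its bases were those of the neighbouring gene DNAJC14, at 28.4, 6.53 and 29.6 FPKM. Transcripts of DNAJC14 were also assembled there in the 3 libraries at 0 µM and in replicates 2 and 3 at 6 µM.

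SPTAN1 (chr9:128552587-128633662) was at 21.6, 22.1 and 23.1 FPKM at 4 µM and at 65.1, 55.5 and 51.1 at 6 µM. The doses did not overlap, and 0 µM lay between them at a mean of 31.3 ± 1.75 FPKM (SD, n = 3). The log2 difference was 1.32 ± 0.13 (adjusted p = 0.0217 in limma). The replicate block gave an adjusted p of 0.15. By consensus exons the difference was -0.32 (adjusted p = 0.976). SPTAN1 no longer passed when replicate 2 or 3 at 0 µM or any replicate at 4 µM was left out, and passed in 4 of 9 such fits. It was also lost with TPM and with the 4 and 6 µM libraries alone. Over the 9 fits the log2 difference lay between 1.22 and 1.39. The transcripts themselves differed between the doses. At 6 µM each library held a short SPTAN1 transcript of 1087 to 1110 bases, at 44.4, 47.5 and 34.9 FPKM. At 4 µM the shortest SPTAN1 transcript was 7399 to 7789 bases long, and the summed level includes a short form that was assembled at 6 µM and at neither other dose.

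DHRS13 (chr17:28897781-28903079) was at 11.3, 14.0 and 11.7 FPKM at 4 µM. In all libraries at 6 µM the gene was listed at 0. Its mean at 0 µM was 10.2 ± 1.24 FPKM, close to 4 µM. The log2 difference was -3.73 ± 0.16 (adjusted p = 8.96e-05 in limma), the adjusted p was 0.00313 with the replicate block, and the call held in all 9 fits without 1 library. It was lost with the block on the 4 and 6 µM libraries alone. By consensus exons the difference was 0.10 (adjusted p = 0.991). At 6 µM the bases of DHRS13 lay in 1 transcript per library that joined them to FLOT2, which encodes the membrane scaffold flotillin 2. These joined transcripts had 15 exons and 4599 to 4617 bases, at 10.9, 19.0 and 9.97 FPKM. The FPKM of these joined transcripts was counted under the name FLOT2. The consensus value of DHRS13 at 6 µM, 10.8, 18.7 and 9.80, is their FPKM spread over its exons. Reads on the DHRS13 exons alone were not measured, and whether RNA of DHRS13 itself differed was not tested.

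With the consensus exon value 3 genes passed and all were higher at 6 µM (0.0245%), TMEM198B and the neighbouring leukotriene receptor genes LTB4R (chr14:24311502-24318036) and LTB4R2 (chr14:24310140-24312038). LTB4R was at a consensus value of 0, 0.156 and 0 at 4 µM and of 2.15, 2.81 and 2.06 at 6 µM, and at 2.72, 2.70 and 3.03 at 0 µM. LTB4R2 was at 0.145, 0.323 and 0.154 at 4 µM and at 2.27, 2.83 and 2.24 at 6 µM. In both genes 6 µM was near 0 µM and 4 µM was the low dose. The log2 differences were 1.66 and 1.51, both with an adjusted p of 0.018, which became 0.0836 with the replicate block. Their summed values did not reach a mean of 1 FPKM, so they were not tested there. LTB4R had a summed value of 0 in every library at 4 and 6 µM. In those libraries LTB4R2 was above 0 only in replicate 1 at 6 µM, at 2.17 FPKM. The other consensus values at 6 µM thus come from transcripts that do not carry the name of the gene. Whether these transcripts belong to the 2 receptor genes was not tested. The 2 genes overlap, so their values share bases.

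Further genes came near the threshold with the summed value. SMARCA4 (chr19:10961030-11062273), the BRG1 ATPase of SWI/SNF chromatin remodelling, was at 80.2, 66.6 and 60.1 FPKM at 4 µM and at 28.4, 30.4 and 33.0 at 6 µM. Its log2 difference was -1.14 ± 0.14 (adjusted p = 0.0575 in limma) and -0.36 with the consensus exon value. A short transcript of 1322 to 1450 bases, at 56.0, 44.2 and 29.3 FPKM, was assembled in each library at 4 µM and at neither other dose. At 0 µM SMARCA4 was at 41.9, 39.0 and 40.4 FPKM, with a shortest transcript of 4991 to 5131 bases. In summed FPKM 4 µM was thus the high dose. ZC3H14 (chr14:88563037-88627596), a zinc finger protein that binds poly-A tails, was at 20.8, 23.2 and 23.2 FPKM at 4 µM and at 12.03, 10.6 and 12.1 at 6 µM. All libraries at 6 µM lay below all at 4 µM and at 0 µM, where the mean was 25.4 ± 0.409 FPKM. Its log2 difference was -0.90 ± 0.12 (adjusted p = 0.0808) and -0.74 by consensus exons (adjusted p = 0.131). Its longest transcript measured 2358 to 2424 bases at 4 µM and 5460 to 5624 at 6 µM.

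In 18 tested genes every library of 1 dose was at 0 and none of the other was. Of these, 10 were listed at 0 at 4 µM and 8 at 6 µM. IMMP1L (chr11:31432401-31509622), a subunit of the mitochondrial inner membrane peptidase, was at 4.77, 12.1 and 18.8 FPKM at 4 µM and at 0 at 6 µM. It was at 0 in the 3 libraries at 0 µM too, and its adjusted p was 0.0575. MAP3K15 (chrX:19360059-19515508), a kinase of the MAP3K family, was at 0 at 4 µM and 0 µM and at 4.16, 4.06 and 6.50 FPKM at 6 µM (adjusted p = 0.0575 in limma). By consensus exons the difference was 0.07, and the FPKM came from a transcript of 686 to 768 bases with 2 exons.

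**Figure D1:**
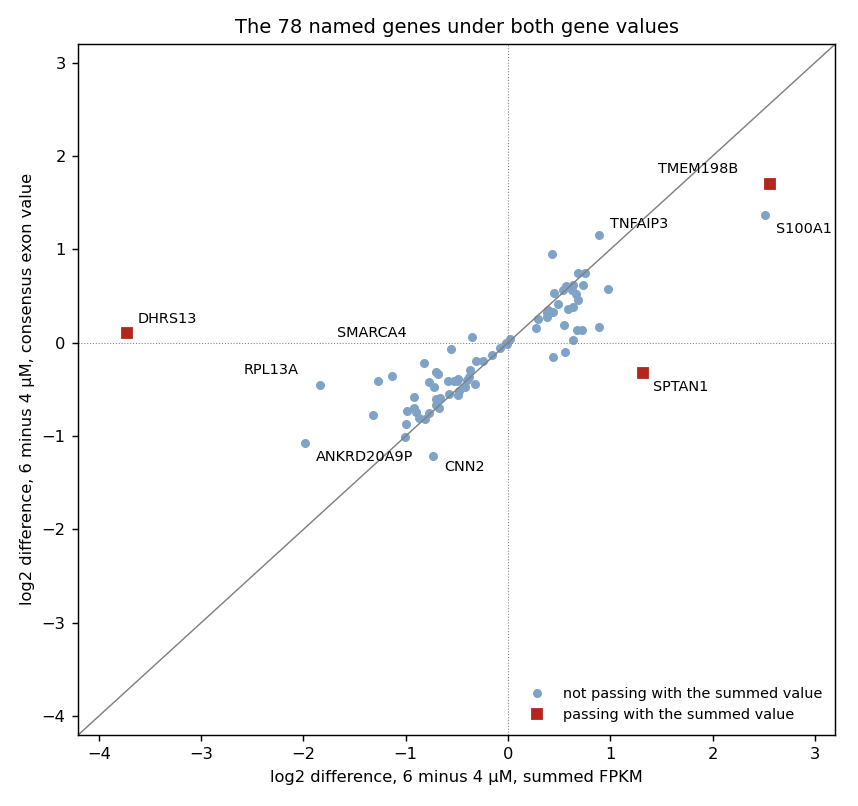
Each point is 1 of the 78 named genes, with the log2 difference between 6 and 4 µM from summed FPKM on the x axis and from the consensus exon value on the y axis; the line marks equality. TMEM198B has the same sign by both values, at 2.56 and 1.71, while SPTAN1 and DHRS13 change sign, at 1.32 and -0.32, and at -3.73 and 0.10.

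Whether the step from 4 to 6 µM was steeper per µM than the step from 0 to 4 µM was tested directly in the same fit. In 4 genes (0.0327%) the slopes differed at an adjusted p below 0.05 in limma, and in 1 with the replicate block. The count was 9 and 7 without replicates 1 and 3 at 0 µM, 7 and 8 without replicates 2 and 3 at 4 µM, and 13 and 12 without replicates 2 and 3 at 6 µM, within a range of 3 to 13. The 4 were DHRS13, TMEM198B, SPTAN1 and IMMP1L, each with a library group at 0 or a form assembled at 1 dose. At an unadjusted p below 0.05 the slope was more positive over the upper step in 145 genes (1.18%) and more negative in 260 (2.12%). The comparison of 4 with 0 µM and that of 6 with 4 µM share the libraries at 4 µM, so a value that is high at 4 µM by chance enters them with opposite signs. Both differences are therefore given side by side below, without a measure of likeness between them.

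Among genes that did not pass, the 10 with the smallest p in the higher direction that were detected in every library, did not overlap under either gene value and had a mean of at least 5 FPKM were PISD, TNFAIP3, FNBP4, CLCN6, FBN1, SAT1, SSUH2, LIF, ZNF32 and MXI1. PISD (chr22:31618491-31662564), the mitochondrial enzyme that makes phosphatidylethanolamine, was at 21.1, 21.0 and 21.97 FPKM at 4 µM and at 32.2, 36.2 and 36.6 at 6 µM. Its mean was 21.3 ± 3.08 FPKM at 0 µM and 21.3 ± 0.547 at 4 µM, with a log2 difference of 0.01 over the lower step and 0.69 ± 0.14 over the upper (adjusted p = 0.761 in limma). SAT1 (chrX:23783173-23786210), the acetyltransferase that starts polyamine breakdown, was at 205, 158 and 144 FPKM at 4 µM and at 328, 262 and 225 at 6 µM. It was at 64.9 ± 3.05 FPKM at 0 µM, so its log2 difference was 1.35 over the lower step and 0.68 ± 0.18 over the upper (adjusted p = 0.954). The unadjusted p for a difference between its slopes per µM was 0.986. CLCN6, an exchanger of chloride and protons in late endosomes, was at 10.1, 9.88 and 8.17 FPKM and then at 16.8, 16.3 and 12.7. LIF, a cytokine of the interleukin 6 family, was at 14.8, 13.7 and 10.0 FPKM and then at 20.3, 28.2 and 18.0, with 15.8 ± 1.11 at 0 µM. MXI1, a partner of MAX that opposes MYC, was at 20.7, 22.4 and 18.0 FPKM and then at 38.4, 30.6 and 27.9. The libraries of the 2 doses were separate in each of these genes, and every adjusted p was at least 0.761. FBN1, which encodes fibrillin 1, had a log2 difference of 0.89 ± 0.22 with the summed value and of 0.17 with the consensus exon value.

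In the lower direction the same rule named SMARCA4, ZC3H14, ANKRD20A9P, RAB11B-AS1, MZT2B, BDH1, TROAP, ENY2, CNIH2, MCM5 and CISD3. MZT2B (chr2:130181654-130204793), a component of the gamma-tubulin ring complex, was at 130, 147 and 80.9 FPKM at 4 µM and at 60.2, 57.6 and 64.2 at 6 µM. It was at 61.7 ± 4.61 FPKM at 0 µM, so 4 µM was the high dose. The same shape was seen in BDH1 (chr3:197509783-197573343), the mitochondrial dehydrogenase of 3-hydroxybutyrate, at 9.86 ± 1.89, 16.3 ± 0.241 and 8.69 ± 2.57 FPKM at 0, 4 and 6 µM (SD, n = 3). CISD3, a mitochondrial iron-sulfur protein, was at 43.8 ± 9.41, 64.6 ± 3.15 and 39.6 ± 6.51 FPKM. ENY2 (chr8:109334347-109345954), a subunit of the SAGA and TREX-2 complexes, was different in shape, at 289 ± 96.3 FPKM at 0 µM, 237 ± 14.1 at 4 µM and 120 ± 25 at 6 µM. Its log2 difference was -0.99 ± 0.24 over the upper step and -0.24 over the lower. TROAP, a spindle-associated protein, was at 47.1, 41.0 and 48.4 FPKM at 4 µM and at 29.8, 24.7 and 24.4 at 6 µM, with 47.4 ± 10.1 at 0 µM. None of these reached an adjusted p below 0.05, the lowest beside SMARCA4 and ZC3H14 being 0.691 for ANKRD20A9P. RAB11B-AS1 is an antisense RNA, and its strand is uncertain in these files.

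**Figure D2:**
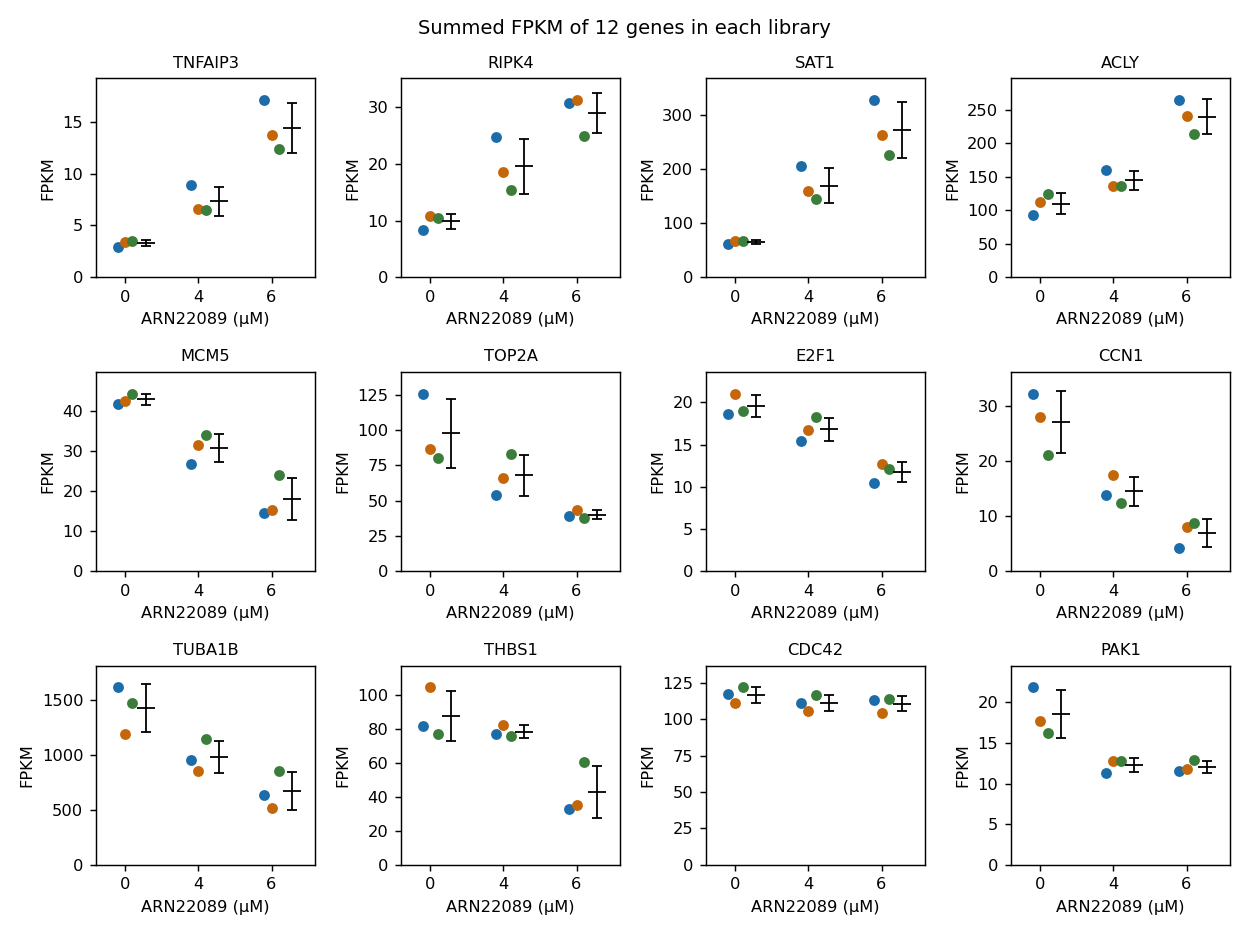
Summed FPKM (y axis) of 12 genes by ARN22089 dose in µM (x axis); coloured points are replicates 1, 2 and 3 (blue, orange, green), and the bar is the mean with its SD (n = 3). TNFAIP3, RIPK4, SAT1 and ACLY have all 3 libraries at 6 µM above those at 4 µM, MCM5, TOP2A, E2F1, CCN1, TUBA1B and THBS1 have them below, and CDC42 and PAK1 overlap.

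Single genes of DNA replication did not pass, but the list lay to one side as a whole. Cells license origins by loading the MCM helicase with CDC6 and CDT1, and the helicase then starts with CDC45 and the GINS proteins. Of 46 list members, all of which were tested, 46 had a negative and 0 a positive log2 difference, with a median of -0.45 and a range of -1.06 to -0.14 (both log2), beside a median of -0.03 over all tested genes. An unadjusted p below 0.05 was found for 15 lower members (32.6%, beside 2.97% of all genes) and 0 higher ones, and 11 did not overlap (7.37% of all genes). None reached an adjusted p below 0.05 in limma. With the consensus exon value the median was -0.46 and 27 members had an unadjusted p below 0.05 in the lower direction, where 3.24% of all genes did. The median within replicate numbers 1, 2 and 3 was -0.33, -0.59 and -0.38. Over the lower step the median was -0.41, which is -0.10 per µM against -0.23 per µM over the upper step, and no member had an unadjusted p below 0.05 for a difference between the slopes. Leaving out 1 library moved the median between -0.61 and -0.32.

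The helicase and its loaders give the clearest values. MCM5 (chr22:35400140-35455031), a subunit of the helicase, was at 26.8, 31.5 and 33.8 FPKM at 4 µM and at 14.4, 15.3 and 24.0 at 6 µM. Its log2 difference was -0.77 ± 0.20 (unadjusted p = 0.00386, adjusted p = 0.954 in limma) after -0.47 over the lower step. CDC6 (chr17:40287879-40304657), the loader, was at 19.0, 23.6 and 16.5 FPKM and then at 9.33, 12.5 and 13.1, with 30.3 ± 6.88 at 0 µM. In both genes the doses did not overlap, which the rule that also named MCM5 among all genes had required. The remaining members named here were chosen after their values were seen. MCM7 was at 98.0, 89.0 and 96.6 FPKM at 4 µM and at 79.1, 58.6 and 76.9 at 6 µM. GINS2, a GINS subunit, was at 24.4, 28.8 and 32.2 FPKM and then at 15.9, 14.0 and 26.7, so that replicate 3 at 6 µM lay among the libraries at 4 µM. CHAF1A, a chaperone that places histones on new DNA, was at 14.6, 17.4 and 44.6 FPKM and then at 7.87, 9.79 and 14.0. PCNA, the sliding clamp, stayed nearer, at 211, 212 and 246 FPKM and then 182, 146 and 211.

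Many replication genes are controlled by E2F factors, and the promoter of CDC6 is shown because its E2F motif lies just past the start. The motif was searched as TTTCCCGC or TTTGGCGC on both strands, in the 250 bases before and the 50 bases after each RefSeq start (GRCh38.p14). It was found in 18 of 40 replication promoters (45%), in 2 of 39 of the mitosis list, in 2.31% of all 27305 promoters and in 3.76% of those of tested genes. A match is a description of letters and was not tested for binding. In the window of CDC6 (chr17:40287629-40287928, plus strand) capitals mark the match, which begins 7 bases after the start.
CDC6: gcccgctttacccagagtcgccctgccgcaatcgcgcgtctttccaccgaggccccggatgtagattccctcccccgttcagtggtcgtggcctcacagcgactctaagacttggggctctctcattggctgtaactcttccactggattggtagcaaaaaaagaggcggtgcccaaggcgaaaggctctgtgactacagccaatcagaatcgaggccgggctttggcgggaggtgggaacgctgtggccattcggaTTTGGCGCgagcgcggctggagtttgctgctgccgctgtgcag

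Members of the mitosis list were lower too. It holds the kinases, spindle proteins and checkpoint genes that cells make in G2 and M phase. All 46 members were tested, of which 45 had a negative and 1, the motor KIF11, a positive log2 difference, with a median of -0.43. An unadjusted p below 0.05 was found for 12 lower members (26.1%, beside 2.97% of all genes) and 0 higher ones, and 15 did not overlap, all lower (7.37% of all genes). None passed limma's test. The medians within replicate numbers 1, 2 and 3 were -0.34, -0.50 and -0.45. The list median was -0.65 over the lower step, or -0.16 per µM, and -0.22 per µM over the upper. The median was -0.28 without replicate 3 at 4 µM, where the list was highest among the treated libraries, and lay between -0.57 and -0.28 over all fits without 1 library. In bulk RNA a smaller share of cells in division and less of these RNAs per cell cannot be told apart.

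ECT2 (chr3:172750726-172829265), an exchange factor for small GTPases that positions the cleavage furrow, was at 17.4, 9.62 and 16.0 FPKM at 4 µM and at 4.23, 4.10 and 7.81 at 6 µM. At 0 µM it was at 17.2 ± 5.51 FPKM, and the log2 difference over the upper step was -1.27 ± 0.31 (unadjusted p = 0.0033, adjusted p = 0.954 in limma), after -0.25 over the lower. By consensus exons the untreated libraries had 13.4, 13.4 and 12.9, those at 4 µM had 6.81, 4.70 and 8.91, and those at 6 µM had 4.08, 3.51 and 7.15, with an upper difference of -0.41. By that value the 2 treated doses overlapped and the larger gap lay between 0 and 4 µM. TOP2A (chr17:40388525-40417896), the topoisomerase that untangles chromosomes, was at 54.2, 66.4 and 83.3 FPKM and then at 39.2, 43.6 and 37.7, and its doses did not overlap in summed FPKM. Its consensus values were 38.9, 36.7 and 55.1 at 4 µM and 30.6, 24.9 and 37.7 at 6 µM, which overlap. AURKB, a kinase of the chromosomal passenger complex, was at 43.3, 43.97 and 47.5 FPKM and then at 30.7, 28.6 and 40.4. The proliferation marker MKI67 was at 24.5 ± 5.34 FPKM at 0 µM, at 12.2, 12.2 and 15.0 at 4 µM and at 9.5996, 10.6 and 10.8 at 6 µM. AURKB, MKI67, KIF11 and BIRC5 were chosen after their values were seen. BIRC5, which encodes survivin, shows how the gene value matters, with -0.98 from the summed value and 0.17 from the consensus exon value.

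Mitotic promoters often carry a cell cycle homology region, here searched as TTTGAA on both strands. It was found in 28 of 39 mitosis promoters (71.8%), in 15.4% of all promoters and in 9.81% of the 9983 promoters of tested genes. The windows of ECT2 (chr3:172750476-172750775, plus strand) and TOP2A (chr17:40417847-40418146, minus strand) are shown because each holds 2 matches, in capitals. They begin 115 bases before and 34 after the start in ECT2, and 194 and 151 bases before it in TOP2A.
ECT2: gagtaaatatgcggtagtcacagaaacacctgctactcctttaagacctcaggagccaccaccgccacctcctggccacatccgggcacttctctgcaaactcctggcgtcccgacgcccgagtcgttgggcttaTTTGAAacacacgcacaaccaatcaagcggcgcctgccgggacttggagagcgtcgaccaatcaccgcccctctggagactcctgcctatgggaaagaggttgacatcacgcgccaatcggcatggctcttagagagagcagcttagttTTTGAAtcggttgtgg
TOP2A: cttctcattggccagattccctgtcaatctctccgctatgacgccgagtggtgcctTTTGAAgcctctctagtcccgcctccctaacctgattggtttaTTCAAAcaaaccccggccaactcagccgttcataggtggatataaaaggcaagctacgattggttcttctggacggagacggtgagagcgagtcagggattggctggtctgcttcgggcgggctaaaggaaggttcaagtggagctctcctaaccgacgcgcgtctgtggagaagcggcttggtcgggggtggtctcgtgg

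Genes that control entry into S phase and repair of forks lay lower to a smaller extent. Of 29 genes in the E2F and G1/S list 27 were tested, with 25 negative and 2 positive differences, a median of -0.30 and 3 members with an unadjusted p below 0.05, all lower (11.1%, beside 2.97% of all genes). E2F1 (chr20:33675477-33686385), an activating E2F factor, was at 15.5, 16.7 and 18.2 FPKM at 4 µM and at 10.5, 12.7 and 12.1 at 6 µM. Its log2 difference was -0.48 ± 0.13 (unadjusted p = 0.00573) after -0.21 over the lower step. E2F2 (chr1:23505212-23531233) was at 2.35, 2.80 and 2.87 FPKM and then at 0.824, 0.743 and 0, with 3.12 ± 0.56 at 0 µM. Its consensus values were 1.84, 2.41 and 2.63 at 4 µM and 0.275, 1.23 and 1.48 at 6 µM, so replicate 3 was above 0 there. The log2 difference of E2F2 was -1.32 from the summed value and -0.77 from the consensus exon value. Neither E2F1 nor E2F2 passed limma's test, with adjusted p-values of 0.954 and 0.863, and in both genes the doses did not overlap. CCND1, the cyclin of early G1, was at 48.5, 54.8 and 64.2 FPKM and then at 33.0, 43.5 and 51.2, which overlap. In the recombination and fork repair list all 28 members were tested, with 21 negative and 7 positive differences and a median of -0.31, which was -0.12 without replicate 3 at 4 µM and -0.19 without replicate 2 at 6 µM. CHEK1, the checkpoint kinase of stalled forks, was at 9.32, 9.42 and 14.1 FPKM and then at 6.92, 4.36 and 8.23.

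Tubulins had the lowest median of the 27 lists, -0.49. Of 15 genes 14 were tested, 13 with a negative and 1 with a positive difference, and 3 had an unadjusted p below 0.05 (21.4%, beside 2.97% of all genes), all lower. TUBA1B (chr12:49127782-49131395), the main alpha-tubulin here, was at 950, 855 and 1141 FPKM at 4 µM and at 638, 512 and 852 at 6 µM. It was at 1423 ± 216 FPKM at 0 µM, and its log2 difference was -0.58 ± 0.22 (adjusted p = 0.954 in limma) after -0.53 over the lower step. TUBA1C (chr12:49227926-49274600) was at 494, 429 and 570 FPKM and then at 219, 296 and 456, which overlaps in replicate 3. The beta-tubulin TUBB, chosen after its values were seen, was at 667, 642 and 966 FPKM and then at 431, 441 and 638. The median of the list was -0.62, -0.42 and -0.23 within replicate numbers 1, 2 and 3 and -0.23 over the lower step. Tubulin genes are near-identical copies, so FPKM can be split between them. The member above 0 was TUBE1, also chosen in this way, which encodes epsilon-tubulin of the centriole, at 15.3, 10.1 and 10.7 FPKM and then at 19.3, 15.4 and 18.6.

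**Figure D3:**
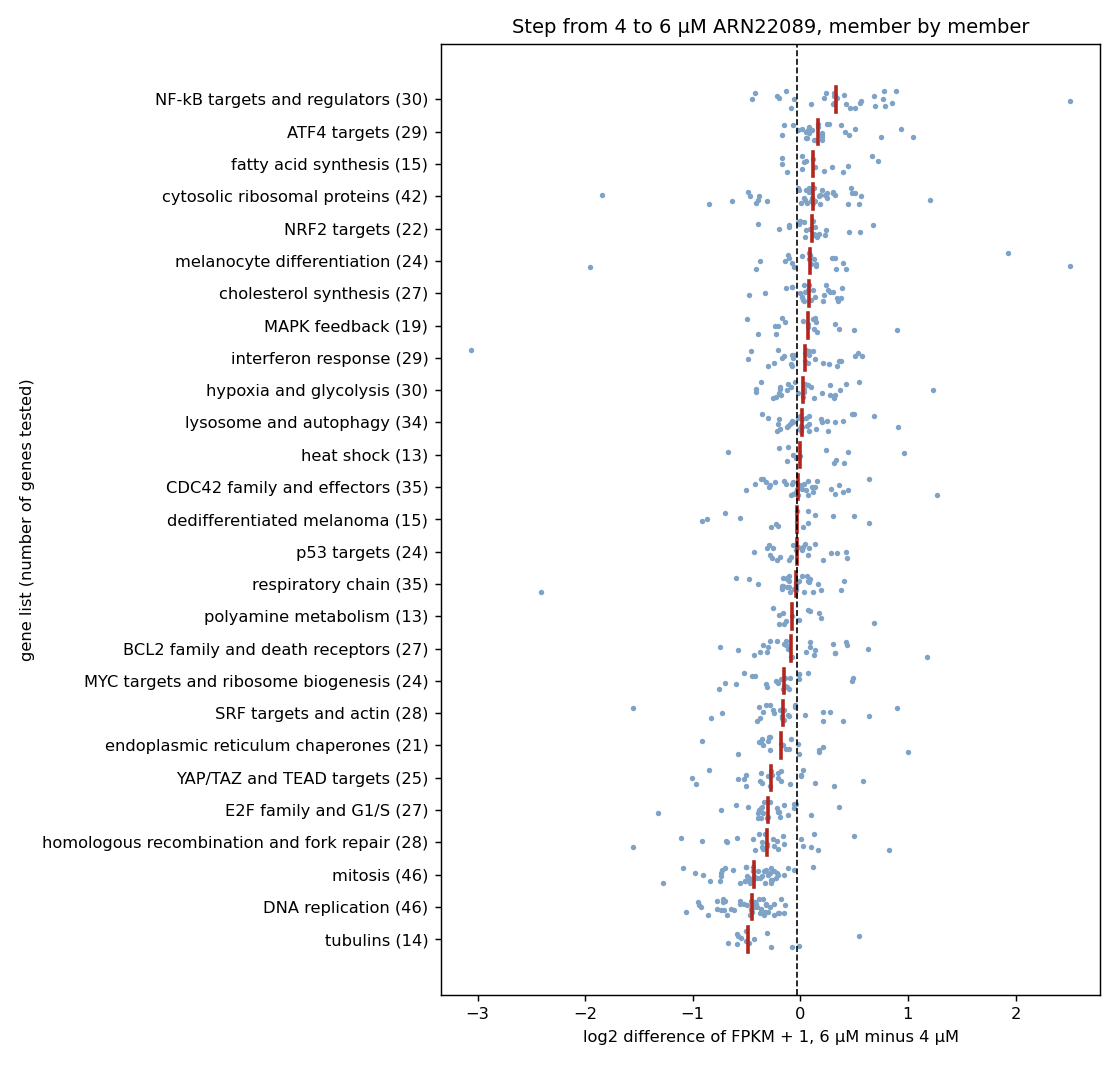
Log2 difference between 6 and 4 µM (x axis) of every tested member (points) of the 27 gene lists (y axis, number tested in brackets), with each list's median as a red bar and the median of all genes as a dashed line. DNA replication, mitosis and tubulins have medians of -0.45, -0.43 and -0.49, and NF-kB targets and regulators have the highest, 0.33.

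On the other side stood genes of the NF-kB pathway, in which inhibitors such as NFKBIA hold the factor in the cytoplasm until they are degraded, and active NF-kB induces the same inhibitors as feedback. Of 37 genes 30 were tested, with 23 positive and 7 negative differences and a median of 0.33. The 7 others did not reach a mean of 1 FPKM. An unadjusted p below 0.05 was found for 3 higher members (10%, beside 1.68% of all genes) and 0 lower ones, and 7 did not overlap, all higher (3.67% of all genes). None passed limma's test. The median within replicate numbers 1, 2 and 3 was 0.17, 0.40 and 0.48, and it was 0.20 without replicate 3 at 4 µM. Over the lower step the median was 0.20. Replicate 1 at 4 µM already stood at a mean log2 level of 4.25 over the list, near the 4.37, 4.32 and 4.13 at 6 µM, while replicates 2 and 3 at 4 µM were at 3.75 and 3.65.

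TNFAIP3 (chr6:137866349-137883312), which encodes A20, an enzyme that edits ubiquitin and shuts the pathway down, was at 8.91, 6.58 and 6.46 FPKM at 4 µM and at 17.1, 13.7 and 12.4 at 6 µM. It was at 3.27 ± 0.301 FPKM at 0 µM, so the 3 doses did not overlap. Its log2 difference was 0.89 ± 0.18 over the upper step (unadjusted p = 0.000922, adjusted p = 0.761 in limma) and 0.95 over the lower, and 1.15 over the upper by consensus exons (adjusted p = 0.131). RIPK4 (chr21:41739373-41767052), a kinase of the RIP family, was at 24.8, 18.6 and 15.3 FPKM and then at 30.8, 31.3 and 24.9. Its libraries at 6 µM all lay above those at 4 µM, by a small gap between replicate 1 at 4 µM and replicate 3 at 6 µM. NFKBIA, the inhibitor itself, was at 89.1, 51.4 and 30.5 FPKM and then at 96.7, 99.8 and 75.5, after 16.2 ± 4.65 at 0 µM. BIRC3, an inhibitor of apoptosis induced by NF-kB, was at 4.59, 3.31 and 1.82 FPKM and then at 8.59, 8.96 and 3.22. NFKBIA and BIRC3 overlapped between the doses, and both were chosen after their values were seen. The largest difference in the list, 2.51 for IER3, has 1 library at 4 µM in which the gene was listed at 0, and was 0.28 with the consensus exon value.

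The NF-kB motif was searched as GGGA, any base, TT, any base and CC, on both strands. It was found in 6 of 24 promoters of the list (25%), in 1.41% of all promoters and in 1.43% of those of tested genes. The list was drawn up as targets and regulators of NF-kB, so these shares do not bear on the dose step. The window of TNFAIP3 (chr6:137867009-137867308, plus strand) is shown because the gene has the smallest p of the list. Its 1 match, in capitals, begins 67 bases before the start.
TNFAIP3: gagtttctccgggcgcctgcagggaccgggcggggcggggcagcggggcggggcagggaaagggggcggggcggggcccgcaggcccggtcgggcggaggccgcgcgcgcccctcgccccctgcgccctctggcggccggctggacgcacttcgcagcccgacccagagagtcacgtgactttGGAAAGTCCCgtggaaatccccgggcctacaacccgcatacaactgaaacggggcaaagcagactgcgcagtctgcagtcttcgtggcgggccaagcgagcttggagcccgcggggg

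**Figure D4:**
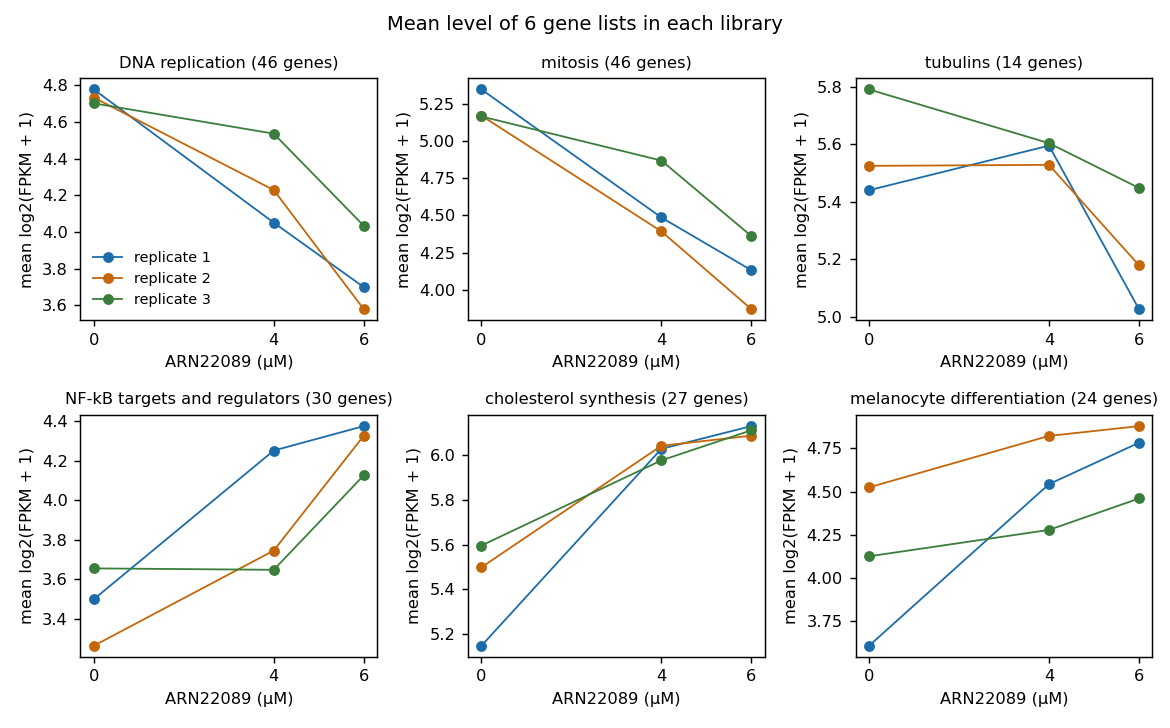
Mean log2(FPKM + 1) over the tested members of 6 lists (y axis) by ARN22089 dose in µM (x axis), with lines joining libraries of the same replicate number. Replication lies at 4.05, 4.23 and 4.54 at 4 µM and at 3.70, 3.58 and 4.03 at 6 µM, while cholesterol synthesis lies at 6.03, 6.04 and 5.98 and then at 6.13, 6.09 and 6.11.

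The cholesterol synthesis list had a median of 0.70 over the lower step (0.18 per µM) and of 0.08 over the upper (0.04 per µM), with 21 positive and 6 negative members of 27 tested, 0 with an unadjusted p below 0.05 in limma and 4 that did not overlap, all higher (3.67% of all genes). The upper median was 0.16 without replicate 2 at 6 µM and 0.03 with TPM. HMGCS1 (chr5:43287470-43313412), an early synthase of the pathway, was at 110, 82.2 and 99.6 FPKM at 4 µM and at 126, 109 and 149 at 6 µM, after 56.7 ± 9.53 at 0 µM. Its difference was 0.39 with a 95% interval of -0.04 to 0.82. FDFT1 (chr8:11795582-11839298), which makes squalene, was at 378, 325 and 290 FPKM and then at 488, 388 and 418. FDPS, the farnesyl synthase, was at 448, 502 and 442 FPKM and then at 487, 412 and 420. FDPS, chosen after its values were seen, overlapped between the doses. No member had a slope that differed between the steps at an adjusted p below 0.05, and 1 did at an unadjusted one, with the upper step less steep.

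In fatty acid synthesis 15 of 17 genes were tested, with a median of 0.12 over the upper and 0.40 over the lower step, or 0.06 and 0.10 per µM. An unadjusted p below 0.05 was found for 2 members, both higher (13.3%, beside 1.68% of all genes). The median was 0.07 without replicate 1 at 4 µM, 0.03 without replicate 1 at 6 µM. By consensus exons it was 0.05, and 0 members had such a p (1.28% of all genes), while 1 did with the replicate block. ACLY (chr17:41866917-41930545), which makes cytosolic acetyl-CoA from citrate, was at 161, 137 and 137 FPKM at 4 µM and at 265, 241 and 213 at 6 µM. Its doses did not overlap in summed FPKM but did so by consensus exons. The log2 difference was 0.72 ± 0.16 (unadjusted p = 0.00141, adjusted p = 0.863 in limma), but 0.14 with the consensus exon value. ACSS2 (chr20:34874989-34927959), which makes acetyl-CoA from acetate, was at 67.5, 43.7 and 37.5 FPKM and then at 104, 63.0 and 68.6, with an overlap through replicate 1 at 4 µM.

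CCN1 (chr1:85580761-85583950), a secreted matrix protein and a standard target of YAP and TEAD, was at 13.8, 17.4 and 12.3 FPKM at 4 µM and at 4.11, 7.93 and 8.76 at 6 µM, after 27.1 ± 5.63 at 0 µM. The 3 doses did not overlap, and the log2 difference was -1.01 ± 0.27 over the upper step (adjusted p = 0.954 in limma) and -0.85 over the lower. DLC1 (chr8:13083361-13604620), which turns small GTPases off, was at 10.4, 12.04 and 12.6 FPKM and then at 7.08, 7.82 and 8.61. Over the YAP and TEAD list, 25 of 26 genes were tested, with 19 negative and 6 positive differences, a median of -0.27, and 4 lower (16%, beside 2.97% of all genes) and 1 higher member (4%, beside 1.68%) at an unadjusted p below 0.05. The medians within replicate numbers 1, 2 and 3 were -0.06, -0.34 and -0.23. The median was -0.44 without replicate 3 at 6 µM. Over the SRF target and actin list (28 of 29 tested) the median was -0.16, with 3 lower members at an unadjusted p below 0.05 (10.7%, beside 2.97% of all genes). The medians within replicate numbers 1 and 2 were -0.22 and -0.32, and replicate number 3 had the other sign, at 0.05. MYH9, the heavy chain of non-muscle myosin, was at 84.1, 94.9 and 47.7 FPKM and then at 35.1, 42.0 and 45.0, and -0.22 with the consensus exon value against -0.83 with the summed one. CNN2 (chr19:1026608-1039065), a calponin that binds actin, was at 48.7, 51.1 and 50.8 FPKM and then at 24.7, 31.7 and 34.0, with -0.73 and -1.22 by the 2 gene values. THBS1 (chr15:39581079-39599466), the matrix protein thrombospondin 1, was at 77.0, 82.5 and 75.8 FPKM and then at 32.6, 35.0 and 60.3, and at 87.7 ± 14.7 at 0 µM. In CNN2 and THBS1 the doses did not overlap in summed FPKM, and 4 µM was near 0 µM. Their consensus values did overlap. CNN2 was at 20.2, 50.7 and 50.5 at 4 µM and at 9.13, 31.4 and 12.6 at 6 µM by that value. THBS1 was at 76.7, 52.3 and 75.8 and then at 32.6, 35.0 and 60.3.

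The genes of the GTPases themselves did not differ detectably across the step. CDC42 (chr1:22052709-22101360) was at 111, 106 and 117 FPKM at 4 µM and at 113, 105 and 114 at 6 µM, a log2 difference of -0.01 with a 95% interval of -0.27 to 0.25. PAK1 (chr11:77322017-77530009) was at 11.3, 12.8 and 12.7 FPKM and then at 11.5, 11.9 and 12.9, a difference of -0.02 (-0.35 to 0.31). RHOQ (chr2:46542490-46584688) had 0.02 (-0.38 to 0.41). In these 3 genes the libraries at 4 and 6 µM overlapped, and the sign of such small values turned with the scaling. Over the lower step the log2 differences were -0.07 for CDC42, 0.08 for RHOQ and -0.55 for PAK1. PAK1 was at 18.6 ± 2.93 FPKM at 0 µM, and its adjusted p over the lower step was 0.29 in limma. The intervals of RHOJ (chr14:63204443-63293508; -0.24, from -1.11 to 0.63) and PAK2 (chr3:196739857-196832647; -0.08, from -0.93 to 0.77) are wide. The list for the CDC42 family and its effectors holds 43 genes, of which 35 were tested, with a median of -0.02, which was 0.00 with each library centred on its median. One member had an unadjusted p below 0.05 in each direction, a share of 2.86% on either side, beside 1.68% higher and 2.97% lower over all genes. These were BAIAP2, which links CDC42 to membrane protrusions, at 19.5, 19.8 and 18.6 FPKM and then at 20.0, 35.9 and 39.6 (0.02 with the consensus exon value), and ARHGDIB, which holds GTPases in the cytosol, at 16.8, 25.5 and 20.2 and then at 12.6, 17.5 and 15.6.

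Pigment cell genes had a small list median over the upper step, while single members ranged from -1.96 to 2.51 (both log2). The list of melanocyte differentiation genes had a median of 0.62 over the lower step and of 0.09 over the upper, with 16 positive and 8 negative members of 24 tested and 0 at an unadjusted p below 0.05 in limma. SOX10, a lineage factor, was at 160, 144 and 146 FPKM at 4 µM and at 151, 144 and 158 at 6 µM, and MITF, the other, at 14.8, 13.3 and 18.0 and then at 16.5, 16.7 and 15.6. DCT, a melanin enzyme, was at 246, 281 and 258 FPKM and then at 218, 365 and 289, after 91.2 ± 44.5 at 0 µM. These 3 genes, chosen after their values were seen, overlapped between the doses. PAX3, a further lineage factor, had a difference of 0.30 with a 95% interval of -0.15 to 0.74. S100A1, a calcium-binding protein, was at 19.6, 24.3 and 62.5 FPKM and then at 274, 348 and 62.6, so replicate 3 was level across the step and its SE was 1.11.

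The stress lists differed in sign. The ATF4 list, the amino acid and integrated stress response, had 25 positive and 4 negative differences of 29 tested, with a median of 0.16, which moved with single libraries. It was 0.26, 0.08 and 0.07 without replicates 1, 2 and 3 at 4 µM, and 0.01 and 0.25 without replicates 1 and 3 at 6 µM. No member had an unadjusted p below 0.05. ATF3, a factor of that response, was at 7.04, 5.51 and 5.67 FPKM and then at 13.4, 8.01 and 5.89. Chaperones of the endoplasmic reticulum had 17 negative and 4 positive differences of 21, a median of -0.18 (-0.28 with a filter at a mean of 5 FPKM), and 6 members that did not overlap, all lower (7.37% of all genes). An unadjusted p below 0.05 was found for 2 lower members, HSPA5 and CALR (9.52%, beside 2.97% of all genes). It was also found for 1 higher member, ERN1 (4.76%, beside 1.68% of all genes). ERN1, named after its values were seen, is a stress sensor of that compartment with 2 libraries at 0 at 4 µM. Its difference was 1.00, and 0.18 by consensus exons. HSPA5 (chr9:125234853-125241343), the main chaperone there, was at 374, 399 and 417 FPKM at 4 µM and at 290, 318 and 313 at 6 µM, after 499 ± 80.2 at 0 µM. CALR, which folds glycoproteins, was at 938, 1065 and 987 FPKM and then at 666, 798 and 831. Their log2 differences were -0.37 ± 0.15 and -0.39 ± 0.16, with an adjusted p of 0.954 in limma and no overlap between the doses in summed FPKM. The consensus values of HSPA5 were 292, 399 and 417 at 4 µM and 263, 318 and 313 at 6 µM, which overlap. Genes of ribosome biogenesis and MYC targets had 21 negative and 3 positive differences of 24, a median of -0.16 and 0 members at an unadjusted p below 0.05.

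The remaining 12 lists had medians between -0.09 and 0.11. These were cytosolic ribosomal proteins (0.11), NRF2 targets (0.10), MAPK feedback genes (0.08), interferon response (0.04), hypoxia and glycolysis (0.03), lysosome and autophagy (0.02), heat shock (0.00), dedifferentiated melanoma (-0.03, and -0.27 with the consensus exon value), p53 targets (-0.03), respiratory chain (-0.04), polyamine metabolism (-0.08) and BCL2 family with death receptors (-0.09). None of their members passed limma's test. TNFRSF10B (chr8:23020133-23069031), a receptor for the death ligand TRAIL, was at 54.8, 38.5 and 53.7 FPKM and then at 74.8, 69.5 and 54.1. BAX (chr19:48954875-48961798), which opens mitochondria in apoptosis, was at 197, 187 and 200 FPKM and then at 151, 163 and 155, and at 166 ± 23.6 at 0 µM. The doses overlapped in TNFRSF10B and not in BAX. IFIH1, a sensor of double-stranded RNA, was at 3.23, 3.46 and 2.85 FPKM and then at 5.85, 6.12 and 3.57. RPL13A, a ribosomal protein with many near-identical copies, was at 2680, 1489 and 3202 FPKM and then at 726, 855 and 445, but its longest transcript was 556 to 815 bases at 4 µM and 2771 to 2780 at 6 µM, and its consensus difference was -0.45 against -1.84.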

How the data were processed

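Poly-A RNA of 9 libraries of WM3248 cells was sequenced, 3 per dose of 0, 4 and 6 µM ARN22089, 24 h after addition. Per the submitters' processing notes, the authors used, among others, Cufflinks 2.2.1, TopHat2 2.1, Bowtie2 2.2.7, Trimmomatic, SAMtools 1.9 and R 4.0.3. The deposited files are 1 Cufflinks assembly per library, in which each transcript carries an FPKM value, a score of abundance normalized for length and depth by the authors. The notes name GRCh37, but 8 of 2171 plus-strand introns on chromosome 20 (0.368%) had GT and AG ends there, and the coordinates match GRCh38. No whole counts are used here. The depth relative to the median library was read from the files and lay between 0.802 and 1.34 in the 6 libraries compared.

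Transcripts carry no gene symbols. Of 193769 spliced transcripts, 186063 (96.0%) were named by an overlapping RefSeq gene on the same strand that shared at least 1 intron length. The intron lengths of each gene were taken from GENCODE. Single-exon transcripts were named where at least 50% of their bases lay in 1 RefSeq gene only and no spliced transcript had that name. This gave 14750 genes, and FPKM was summed per gene. The 12246 genes whose mean over all 9 libraries reached 1 FPKM were fitted as log2(FPKM + 1) with limma 3.58.1 in R 4.3.3, with a mean-variance trend and all 3 doses as groups (6 residual degrees of freedom), and adjusted by Benjamini-Hochberg. The consensus exon value was fitted likewise for 12241 genes. Other steps used Python 3.11.15 with pandas 2.3.3 and matplotlib 3.10.9. Procedures were tested on simulated data.

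Libraries of the same replicate number share a tag in the labels. Deviations from the dose means correlated at 0.111 to 0.146 between 4 and 6 µM libraries of the same number. Between other numbers the range was -0.0964 to -0.0290, which is tied to the first range because deviations within a dose cancel out. Between 0 µM libraries and 4 or 6 µM libraries of the same number it was -0.00735 to 0.0535. A weak pairing of the 4 and 6 µM libraries was thus seen, which the main fit leaves out. A fit with the number as a block was the alternative. Other alternatives were TPM rescaling, median centring, a pseudocount of 0.1, filters of 0 and 5 FPKM, no variance trend, the 6 libraries alone, and leaving out each library. Named genes were those that passed, then genes up to 12 per direction by the smallest unadjusted p among those with a mean of at least 5 FPKM, no library at 0 and no overlap in either gene value, 2 members per list by the smallest p, and CDC42, RHOJ, RHOQ, PAK1 and PAK2. Some genes that the rule or the lists hold are not reported here. The doses compared, the genes and the 27 lists were chosen with earlier results of these data known. Promoter sequences are from RefSeq (GRCh38.p14).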

Additional observations from a re-analysis of the deposited data

How the results depend on the processing

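The count of 3 genes that passed between 6 and 4 µM in limma was 5 with no filter, 5 with no variance trend, 6 with the 4 and 6 µM libraries alone, 1 with the replicate block, 0 with the block on those 6 libraries and 0 with the block and the consensus exon value. Where it was 0, 333 genes were higher and 593 lower at an unadjusted p below 0.05 with the block on 6 libraries, and 243 and 560 with the block and the consensus value. With all 9 libraries the block ended the calls of TMEM198B (adjusted p = 0.0921) and SPTAN1 (0.15) and changed no other call among the named genes, and on the 6 libraries it also ended that of DHRS13. Leaving out 1 library gave 2 to 14 genes. The 4 genes whose slopes differed became 2 with a filter of 5 FPKM, 7 with no filter and 1 with the block, and 3 to 13 without 1 library. With the consensus exon value, with and without the block, the sign turned for SPTAN1 (-0.32), DHRS13 (0.10), HSPH1 (-0.15), FTH1 (-0.10) and NEU1 (0.0588). With median centring CDC42 was 0.0172 and PAK1 0.00393, and with TPM RHOQ was -0.0340. Without 1 library CDC42 ranged from -0.0431 to 0.0317, RHOQ from -0.11 to 0.186, PAK1 from -0.0752 to 0.0107 and PAK2 from -0.35 to 0.228, turning sign in 2, 3, 3 and 2 fits. Of 1555 values of named genes under an alternative, 1519 kept their sign and side of the threshold, and 477 of 540 list medians moved by less than the spread between replicate numbers. Most named genes did not pass in the main fit, so keeping their side mostly means staying above the threshold. The block and the leaving out of a 0 µM library also leave each difference unchanged by design. These shares are therefore no measure of how firm the results are. The files give no counts, so depth limits are known only as relative depth, and genes near 1 FPKM can be at 0 through assembly alone. The causes of these changes were not tested.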

Other observations

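The length of the assembled transcripts differed between the doses in a small set of genes. Among 10924 genes with a named transcript in all 6 libraries, the longest transcript was at least 1.5 times longer in every library at 6 µM than in every library at 4 µM in 26 genes, and the reverse held in 5. IREB2, an RNA-binding protein of iron balance, had longest transcripts of 2806, 2877 and 2298 bases at 4 µM and of 6289, 6292 and 6286 at 6 µM. SKIC3, a subunit of the SKI complex of RNA decay, had 3172, 3506 and 3427 bases and then 5338, 5536 and 5323. DDX5, an RNA helicase, had 2067, 1962 and 1957 bases and then 3162, 3208 and 3153. At 0 µM the longest transcripts were 6286, 3279 and 6288 bases in IREB2 and 5691, 5338 and 5849 in SKIC3. In DDX5 they were 1940, 3168 and 3176 bases. Most libraries at 0 µM were thus near the lengths at 6 µM, and 4 µM was the dose with short forms. The libraries at 4 and 6 µM did not overlap in any of these genes, which the selection fixed, and all were named after their values were seen. Over all these genes the median longest transcript was 2569 to 2618 bases at 4 µM and 2557 to 2708 at 6 µM. Relative depth was 0.802 to 1.00 at 4 µM and 1.00 to 1.34 at 6 µM, and its part in these lengths was not tested.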
